A study of Mus musculus with 96 samples.

Results

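Sox9-positive cells are the epithelial cells of the neonatal mouse uterus in which transcript of Sox9, an HMG-box transcription factor gene, was measurable. They were chosen by measured values: a cell was kept when its Gapdh cycle threshold (Ct, the PCR cycle at which product appears, so that a lower Ct means more template) was below 18, and counted as Sox9-positive when its Sox9 Ct was below 28. Of 96 cells 88 were kept, and 36 of these (40.9%, exact 95% interval 30.5 to 51.9%) were Sox9-positive, leaving 52 Sox9-negative cells for comparison. All cells came from 1 group, with genotype, strain and number of animals not labelled. Uteri of mice at postnatal day 7 were dissociated with collagenase, wells of a plate each received 1 CD326-positive cell (CD326 is EpCAM, an epithelial adhesion molecule) by flow sorting, and 96 assays were run on every cell by microfluidic quantitative PCR. No treatment or control is labelled, and cells of different animals cannot be told apart. Because single cells of 1 group do not replicate a condition, values are given without p-values. Intervals on shares are exact (Clopper-Pearson) and cover counting error only.

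Uterine glands of the mouse form after birth, when buds of the simple luminal epithelium grow into the stroma, and FOXA2 is the transcription factor best known as a marker and requirement of glandular cells. SOX9 is known from stem and progenitor cells of several epithelia, among them intestine, hair follicle and pancreas, and is found in uterine glands. LGR5, a receptor for R-spondins that strengthens WNT signalling, marks stem cells of the intestinal crypt, and retinal dehydrogenase ALDH1A1 is used as a progenitor marker in endometrial epithelium.

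The Sox9 values fell into cells with a recorded Ct, some of them close to the limit, and cells with none. Among the 36 positive cells the Sox9 Ct ran from 18.8 through a median of 23.3 to 27.8. In 23 cells it was below 24, in 7 from 24 to below 26 and in 6 from 26 to below 28. The 2 cells just inside the limit had a Ct of 27.6 and 27.8, and no kept cell had a recorded value above it, since all 52 negative cells were at the fill value of 40. On the Gapdh side the last cell kept had a Ct of 16.5 and the first left out 18.3. Relative to Gapdh in the same cell (Gapdh Ct minus Ct, a log2 scale in cycles on which higher means more), the Sox9 level averaged -11.04 ± 2.14 (SD, n = 36 cells) and ranged from -15.81 to -5.69.

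Sox9-positive cells also detected more of the other assays and had lower Ct values for the reference genes. They detected 36 to 76 of the other 94 assays (Sox9 and Gapdh set aside), with a median of 56.5, and Sox9-negative cells 21 to 65, with a median of 50.5. The mean was 56.5 ± 8.47 (SD, n = 36) in positive and 49.2 ± 10.1 (n = 52) in negative cells. The ranges overlapped widely, but 4 positive cells lay above every negative cell and 5 negative cells below every positive one. Gapdh, a glycolytic enzyme gene, came at a mean Ct of 12.3 ± 1.68 in positive and 13.4 ± 1.46 in negative cells, and actin at 12.8 ± 1.92 and 14.0 ± 1.95. With the cells ordered by this number and cut into 3 tiers, 7 of 31 cells (22.6%) were Sox9-positive in the lowest tier, 11 of 28 (39.3%) in the middle tier and 18 of 29 (62.1%) in the highest. Within the positive cells the Sox9 Ct also went with that of Gapdh (Spearman rho = 0.45 and Pearson r = 0.40, or 0.50 once the 2 most extreme cells in Gapdh Ct were dropped) and against the number of detected assays (rho = -0.50 and r = -0.45, or -0.36). These are descriptions over 36 cells of 1 group. The amount of RNA recovered from a cell and the amount it made cannot be told apart here.

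**Figure D1:**
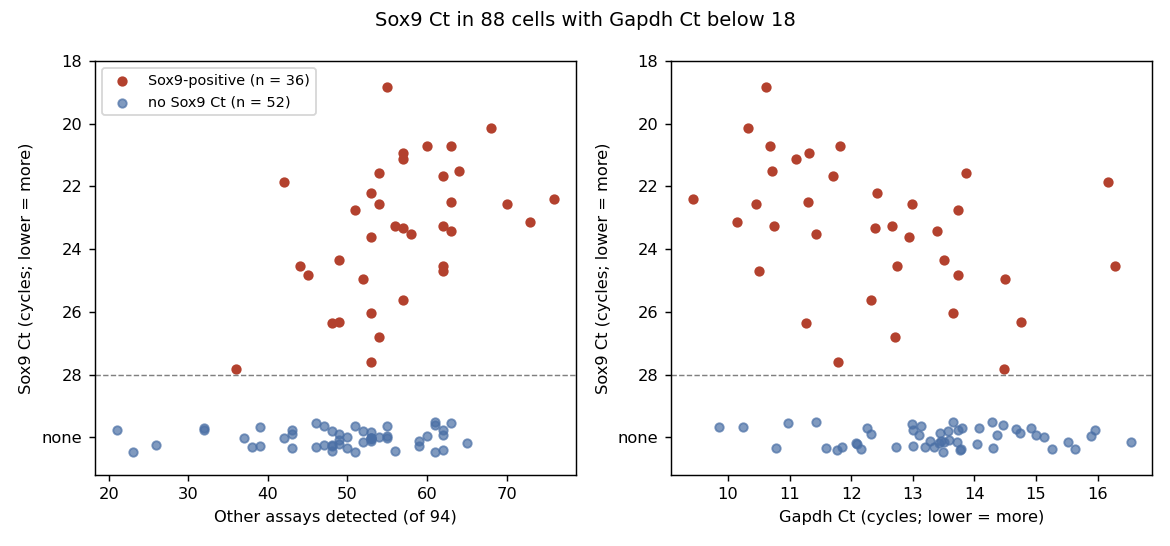
Sox9 Ct (vertical axis, cycles, lower Ct at the top) of the 88 kept cells against the number of other assays detected (left, of 94) and against the Gapdh Ct (right, cycles). Each point is 1 cell; the 52 cells without a Sox9 Ct are spread at random around the line marked none, the dashed line is the limit of 28, and the positive cells sit toward more detected assays (36 to 76) than the negative ones (21 to 65).

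For this reason each assay was compared within such depth tiers. Tiers were drawn on the number of assays detected other than Sox9, Gapdh and the assay in question, the difference in detection share was taken inside each tier, and the 3 differences were averaged with weights that follow the cell numbers. In all 93 assays were compared. Without this step 72 of 93 assays were found in a larger share of Sox9-positive cells and 16 in a smaller one, with a median difference of 7.26 percentage points. Within tiers 57 were higher and 32 lower, with a median of 2.37 points. Tiers did not remove depth fully: in the lowest, positive cells detected a mean of 44.7 other assays and negative cells 41.0. The median was 0.234 points with a linear fit on detected assays and 0 in the shared range of depth. A difference of at least 20 points was used to call an assay higher or lower. By that size 4 of 93 assays (4.3%) were higher in Sox9-positive cells and 0 (0%) were lower. Of the 93 assays 65 were found in 10 to 90% of kept cells, and for most of the others a gap of 20 points could hardly arise. The share of assays called is small, and an assay past 20 points is named for its size and not for a test.

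**Figure D2:**
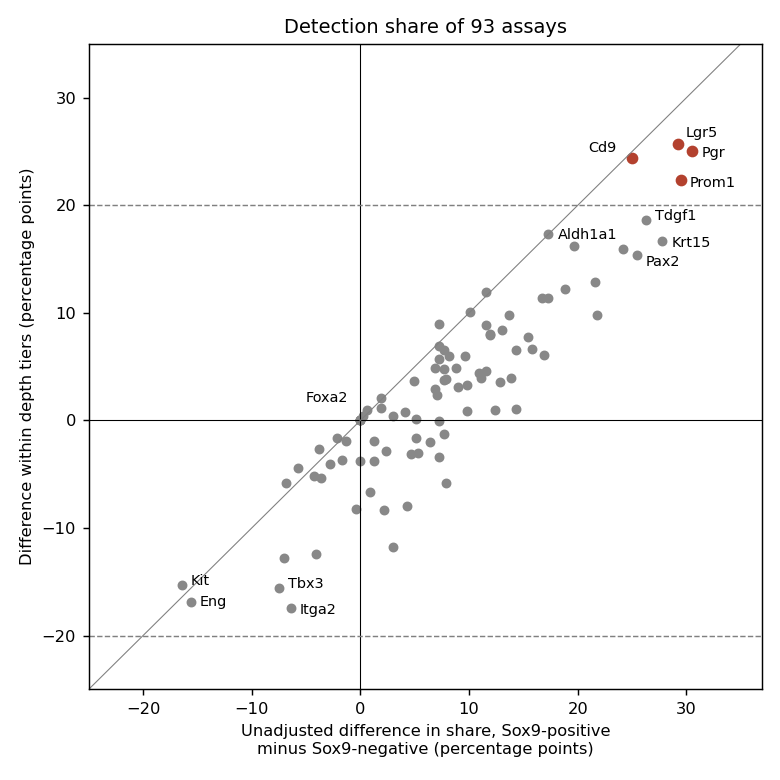
Difference in detection share between Sox9-positive and Sox9-negative cells for 93 assays, in percentage points, without adjustment (horizontal axis) and within depth tiers (vertical axis). Each point is 1 assay, the diagonal marks equality and the dashed lines 20 points either way; most points lie below the diagonal, and the 4 red points (Lgr5, Pgr, Cd9 and Prom1) lie above the upper dashed line.

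The 4 genes higher in Sox9-positive cells were Lgr5, Pgr, Cd9 and Prom1. Lgr5 was detected in 14 of 36 Sox9-positive cells (38.9%, interval 23.1 to 56.5%) and in 5 of 52 negative cells (9.62%, interval 3.20 to 21.0%), a difference of 25.7 points within tiers. Its intervals did not overlap, which held for 2 of the 93 assays (2.15%), Lgr5 and Cd9. From the other side, the same counts without depth adjustment put 14 of the 19 cells with Lgr5 (73.7%, interval 48.8 to 90.9%) among the Sox9-positive. That share was 40.9% of all kept cells and 62.1% of the highest depth tier. Where it was detected, the Lgr5 Ct ran from 15.0 through a median of 20.1 to 24.7 in Sox9-positive cells and from 16.9 through 18.8 to 24.1 in negative ones. The few negative cells with Lgr5 therefore had Ct values in the same range. In cells with Gapdh, actin and Hprt all detected the difference for Lgr5 was 16.6 points.

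Pgr, the progesterone receptor gene, is the reading given here to an assay named pr in the file, a synonym that several genes share, as are er (read as Esr1) and p63 (read as Trp63); the primers were not checked. It was found in 29 of 36 Sox9-positive cells (80.6%, interval 64.0 to 91.8%) and in 26 of 52 negative cells (50.0%, interval 35.8 to 64.2%), a difference of 25.0 points within tiers. Its Ct values lay close to the limit, with a median of 24.7 in positive and 25.4 in negative cells, and with a Ct limit of 24 the difference was 8.59 points. Without the 10% of cells with the fewest and the 10% with the most detected assays it was 17.7 points. The gap in Pgr lay in the cells with fewer detected assays: 5 of 7 against 11 of 25 in the lowest tier and 10 of 11 against 6 of 16 in the middle tier, but 14 of 18 against 9 of 11 in the highest.

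Cd9, which encodes a tetraspanin of the cell surface, was detected in all 36 Sox9-positive cells (interval 90.3 to 100%) and in 39 of 52 negative cells (75.0%, interval 61.1 to 86.0%), a difference of 24.4 points. Its Ct ran from 14.1 through 17.0 to 22.4 in positive and from 15.0 through 17.8 to 23.3 in negative cells. In every tier all positive cells had Cd9, against 17 of 24, 14 of 17 and 8 of 11 negative cells. Among cells with Epcam transcript the contrast was smaller, 31 of 31 positive against 37 of 39 negative cells, or 7.22 points within tiers.

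Prom1, the gene of CD133, a membrane glycoprotein used to sort progenitors, was found in 21 of 36 positive cells (58.3%, interval 40.8 to 74.5%) and 15 of 52 negative cells (28.8%, interval 17.1 to 43.1%), a difference of 22.3 points. Its median Ct was 16.6 in positive and 18.3 in negative cells. The direction was not the same at all depths: 1 of 7 positive against 7 of 26 negative cells in the lowest tier, 8 of 15 against 3 of 15 in the middle and 12 of 14 against 5 of 11 in the highest. Without the cells of extreme depth the difference was 13.3 points, and with a linear fit on detected assays 18.2 points.

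**Figure D3:**
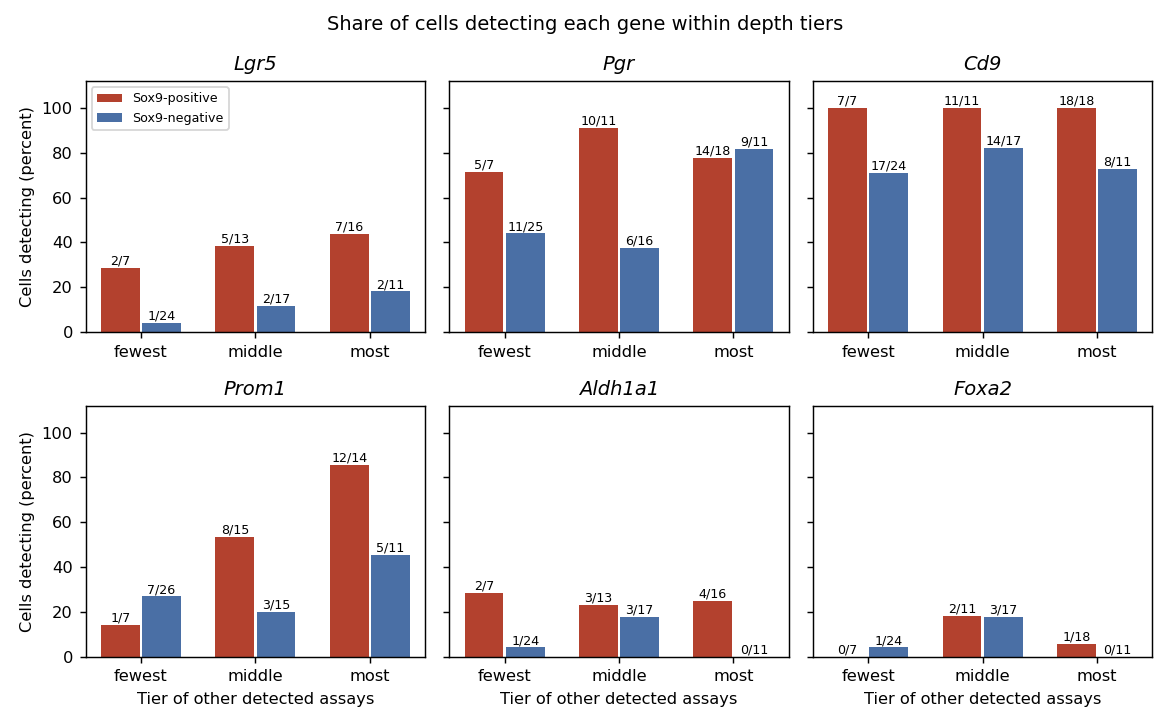
Percent of cells detecting Lgr5, Pgr, Cd9, Prom1, Aldh1a1 and Foxa2 in Sox9-positive (red) and Sox9-negative (blue) cells, within tiers of cells ordered by the number of other detected assays. The numbers over the bars are detecting cells over cells; Sox9-positive cells are higher in all tiers for Lgr5, Cd9 and Aldh1a1, while Prom1 (1 of 7 against 7 of 26) and Foxa2 (0 of 7 against 1 of 24) are lower in the first and Pgr in the last (14 of 18 against 9 of 11).

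The 4 genes often came in the same Sox9-positive cells. Of the 36, 19 detected at least 3 of the 4 and 11 all 4, against 10 and 3 of the 52 negative cells, with medians of 3 and 1. Lgr5 was found with Pgr in 13 of the 14 Sox9-positive cells that detected Lgr5 and with Prom1 in 11. Of the 5 Sox9-negative cells that detected Lgr5, 4 had Pgr and 4 had Prom1, so such pairs were not particular to Sox9-positive cells. None of these counts is adjusted for depth. Cells with none of the 4 numbered 0 among the positive and 5 among the negative cells. That 0 was fixed by Cd9, which all 36 positive cells detected and which counts toward each of their totals. Since the 4 were picked for being more frequent in Sox9-positive cells, these counts describe how they are spread and are no further evidence of a difference.

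The promoters of 3 of the 4 genes are shown because these transcripts went together with that of a DNA-binding factor. They are the 250 bases before the annotated start, from RefSeq (build GRCm38.p6), which held entries for 67 of the 93 compared genes and for Pgr, Cd9 and Prom1 of the 4. Each is written 5′ to 3′ along the gene, and capitals mark the GC box GGGCGG on either strand.
Pgr, chr9:8899583-8899832, plus strand: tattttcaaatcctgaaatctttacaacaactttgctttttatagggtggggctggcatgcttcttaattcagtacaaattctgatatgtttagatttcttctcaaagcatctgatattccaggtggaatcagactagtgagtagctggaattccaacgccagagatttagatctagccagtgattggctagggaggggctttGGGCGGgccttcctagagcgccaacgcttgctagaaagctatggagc
Cd9, chr6:125494761-125495010, minus strand: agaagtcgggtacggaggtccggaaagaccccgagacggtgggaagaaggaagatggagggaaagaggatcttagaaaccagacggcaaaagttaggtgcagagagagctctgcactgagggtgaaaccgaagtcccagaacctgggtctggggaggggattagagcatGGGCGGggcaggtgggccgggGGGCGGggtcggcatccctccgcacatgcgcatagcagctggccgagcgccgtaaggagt
Prom1, the first of 2 annotated starts, chr5:44101737-44101986, minus strand: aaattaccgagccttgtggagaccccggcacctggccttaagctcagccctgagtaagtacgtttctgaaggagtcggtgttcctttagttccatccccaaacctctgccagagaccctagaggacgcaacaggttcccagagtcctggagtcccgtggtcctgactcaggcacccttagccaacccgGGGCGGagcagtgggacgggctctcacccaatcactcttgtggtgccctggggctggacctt
The core letters of SOX binding sites, ACAAT on either strand, were in 0 of these 3 windows, and in 27.7% of all 32851 starts of the table and 21.6% of the 88 starts of measured genes. The GC box was in all 3 windows shown but not in that of the other Prom1 start (chr5:44094769-44095018), and in 32.7% of all starts and 59.1% of the 88 starts of measured genes. These are matches of letters in a short window, and nothing follows from them about binding.

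The gland markers were uneven. Of 6 measured members of the gland list (Foxa2, Aldh1a1, Cdh1, Wnt7a, Lgr5 and Prom1) all 6 lay above 0 and 2, Lgr5 and Prom1, were called higher, with a median difference of 14.6 points. Over all 93 assays 57 lay above 0, 4.3% were called higher and the median was 2.37 points. Cdh1 and Wnt7a also belong to the list of luminal and simple epithelium. The sign for Foxa2 changed in 5 of 15 alternative settings. The list was drawn up with earlier results of these data known, so its count and median are no independent support. Foxa2, the gene tied most closely to glands, was detected in 3 of 36 Sox9-positive cells (8.33%, interval 1.75 to 22.5%) and in 4 of 52 negative cells (7.69%, interval 2.14 to 18.5%), a difference of 1.00 points within tiers. Its Ct was 19.2, 21.1 and 22.5 in the 3 positive cells and 20.3, 25.0, 25.1 and 25.5 in the 4 negative cells. The lowest Foxa2 value, and the most detected assays of any kept cell (76), belonged to the same Sox9-positive cell. Foxa2 and Lgr5 were together in 0 cells. Of the 88 kept cells only 7 detected Foxa2 and 19 Lgr5, too few to read an exclusion from that 0. Aldh1a1 was detected in 9 of 36 positive cells (25.0%, interval 12.1 to 42.2%) and in 4 of 52 negative cells (7.69%, interval 2.14 to 18.5%), 17.4 points within tiers, which is under the size used, and the intervals overlapped. Its Ct ran from 13.4 through a median of 19.2 to 24.5 in the positive cells and from 17.8 to 22.1 in the negative ones. In Sox9-positive cells Aldh1a1 was found with Cd9 in 9 cells, as it had to be with Cd9 in all 36. Aldh1a1 was found there with Pgr in 8 cells, with Prom1 in 7, with Lgr5 in 6 and with Foxa2 in 1. The assay is named aldh1 in the file and was read as Aldh1a1. Since Foxa2 was found in 3 of the 36 cells and in 4 of the 52 others, the cells are called Sox9-positive here and given no gland name.

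**Figure D4:**
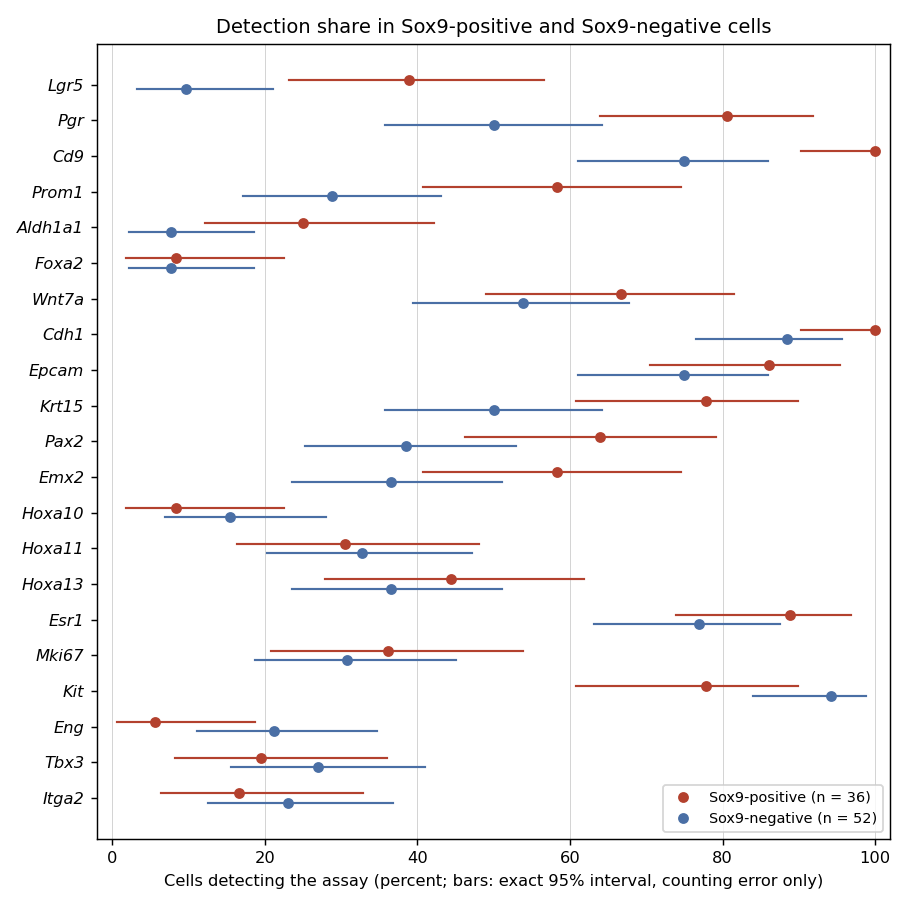
Percent of cells detecting 21 genes in Sox9-positive cells (red, n = 36) and Sox9-negative cells (blue, n = 52), without adjustment for depth; bars are exact 95% intervals for counting error only. The red and blue intervals are apart for Lgr5 (38.9 and 9.62%) and Cd9 (100 and 75.0%) and meet or overlap for the other genes drawn, Foxa2 (8.33 and 7.69%) among them.

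Nearly all Sox9-positive cells carried the epithelial transcripts measured. Cdh1, the gene of E-cadherin, and Krt19, a keratin of simple epithelium, were detected in all 36, Krt18 in 35, Krt8 in 34 and Epcam in 31. At least 4 of these 5 genes were found in 35 of 36 positive and 47 of 52 negative cells. Of 8 measured members of the luminal and simple epithelium list, 1 was called higher (Cd9) and 0 lower, with a median of 3.76 points. Over all 93 assays 4.3% were called higher and 0% lower, with a median of 2.37 points. The lowest of the 8 was Krt18, found in all 52 negative cells (-4.09 points). Of 3 measured basal genes 0 were called. Trp63, the regulator of basal and squamous epithelium, was found in 5 of 36 positive cells against 1 of 52 (7.95 points within tiers), and Krt15, a basal keratin, in 28 of 36 against 26 of 52 (16.7 points).

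By detection share, markers of other cell types were not called in either direction. The values over all 93 assays were 4.3% called higher and 0% lower, with a median difference of 2.37 points. Of 9 measured stromal markers 0 passed, with a median difference of -1.93 points. None of the 9 was absent from Sox9-positive cells, and sma (the file's name for a smooth muscle actin assay) was found in 27 of 36 and 39 of 52. Eng, which encodes the TGF-beta co-receptor endoglin, was found in 2 of 36 positive cells (5.56%) and 11 of 52 negative cells (21.2%), a difference of -16.9 points, and Tbx3, a T-box factor gene, in 7 and 14 (-15.6 points). Vim, the mesenchymal intermediate filament gene, was found in 1 positive and 5 negative cells (-5.80 points). Of the 9, 6 lay below 0 and 3 above, the highest Cd44, in 33 of 36 and 42 of 52 cells (4.39 points). The level summed over the stromal list (28 minus Ct, undetected genes at 0) ran from 17.7 through a median of 40.3 to 58.5 cycles in positive and from 8.69 through 35.8 to 73.7 in negative cells. Of 4 endothelial markers 0 passed (median -0.967 points), with summed levels of 7.56 to 30.9 and 5.98 to 37.5. The highest of the 4 was Cd34, in 23 of 36 and 26 of 52 cells (3.97 points), and the lowest Eng. Of 3 immune markers 0 passed (median 6.66 points), with summed levels of 0 to 34.3 and 0 to 33.4. The highest was Cd40, in 31 of 36 and 35 of 52 cells (12.2 points), and the lowest Ptprc, in 25 and 32 (-5.86). All 88 kept cells carried Pecam1 signal (CD31, a marker of endothelium), so that assay separates nothing here. The part of any non-epithelial RNA in the differences was not tested.

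Patterning genes of the Müllerian tract, the embryonic duct from which the uterus forms, stayed under the size used. Of 7 measured members 0 were called, with a median of 3.81 points. Over all 93 assays 4.3% were called higher and 0% lower, with a median of 2.37 points. Pax2, a paired-box gene of duct and tract epithelium, was detected in 23 of 36 positive cells (63.9%) and 20 of 52 negative cells (38.5%), 15.3 points within tiers, and Emx2, a homeobox gene, in 21 and 19 (9.82 points). Wnt7a, a WNT ligand of uterine epithelium, was found in 24 of 36 and 28 of 52, a gap of 12.8 points that shrank to 3.54 within tiers. Among the Hox genes that set position along the tract, Hoxa13 was found in 16 positive and 19 negative cells (3.81 points), Hoxa11 in 11 and 17 (-1.63) and Hoxa10 in 3 and 8 (-12.8). Lhx1 was found in 4 and 2 cells (5.74 points), at Ct values from 22.0 to 27.7.

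Of 11 measured WNT genes 1, Lgr5, was called higher and 0 lower, with a median of 3.54 points. Over all 93 assays 4.3% were called higher and 0% lower, with a median of 2.37 points. Nothing about the list as a set follows from 1 call. The relatives of Lgr5 did not follow it past 20 points. Lgr6 was in 27 of 36 positive and 30 of 52 negative cells (11.4 points) and Lgr4 in 34 and 44 (3.29). Among the Frizzled receptors, Fzd10 was found in 17 and 12 cells (16.0 points), Fzd4 in 25 and 29 (9.84), Fzd7 in 34 and 49 (0.454) and Fzd9 in 11 and 18 (-12.4). Ctnnb1, the gene of beta-catenin, was found in 35 and 49 cells (0.371 points), Myc in 35 and 46 (4.83) and Wnt5a in 18 and 22 (-1.22). The receptors for R-spondin and WNT were therefore present in most cells of both groups, apart from Lgr5, Fzd9 and Fzd10.

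Of 7 hormone and growth factor receptors 1, Pgr, was called higher and 0 lower, and the median was -1.98 points. Over all 93 assays 4.3% were called higher and 0% lower, and the median was 2.37 points. Here too nothing about the list as a set follows from 1 call. Esr1, the estrogen receptor alpha gene, was found in 32 of 36 positive cells and 40 of 52 negative cells (8.04 points). Kit, the stem cell factor receptor gene, went the other way, in 28 of 36 (77.8%) against 49 of 52 (94.2%), a difference of -15.3 points. With a Ct limit of 26 it was -5.35 points and with a limit of 24 it was 5.55 points. The median Kit Ct was 23.2 in positive and 23.8 in negative cells, so a limit of 24 cuts through the middle of its values. The sign for Kit thus depends on where the limit is set. Mki67, a gene of cycling cells, was found in 13 of 36 and 16 of 52 (-3.03 points). The Polycomb genes Ezh2, in 28 and 33 cells (1.10 points), and Bmi1, in every kept cell, did not differ by the size used.

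Of 20 measured genes of the stem and progenitor list 2, Lgr5 and Prom1, were called higher and 0 lower, with a median of 5.24 points, against 4.3% called higher and a median of 2.37 over all 93 assays. Both also belong to the gland list. Of the 20, 13 lay above 0 and 6 below, the lowest Kit (-15.3 points), against 57 above and 32 below over all 93. Of 8 pluripotency genes 0 were called, with a median of 3.60. Sox2, another SOX factor gene and the highest of these, was found in 14 of 36 positive and 10 of 52 negative cells (16.2 points). Tdgf1, the Cripto co-receptor gene, which the pluripotency list did not hold, was found in 33 and 34 (18.7 points). Esrrb was found in 0 of 36 positive cells (exact upper bound 9.74%, or 8.33% if a count of 0 is taken to allow 3) and in 3 of 52 negative cells. Lin28a was the other assay found in no Sox9-positive cell, and it was found in 0 of 52 negative cells too (exact upper bound 6.85%, or 5.77% for 3 counts). Of the 7 measured members of the integrin list 0 were called, with a median of -3.12, and Itgae, an integrin gene that the list did not hold, was found in 16 and 18 cells (0.882 points). The highest was Itga6, in 32 and 35 cells (12.9 points), and the lowest Itga2, a collagen receptor subunit gene, in 6 and 12 (-17.5 points, the lowest of all 93 assays). The remaining assays near the lower end were Enpep (-11.8 points) and Itga3 (-8.34).

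Levels in the detecting cells were compared next, as Gapdh Ct minus Ct, for the 72 assays found in at least 10 cells of each group. Sox9-positive cells had more Epcam and Lrig1 and less Hoxa13, Hoxa11, Cd34 and Sall4 relative to Gapdh, by at least 1 cycle within tiers. That was 2 of 72 assays higher (2.78%) and 4 lower (5.56%), and the median over the 72 was -0.09 cycles. Because the mean Gapdh Ct itself differed by -1.09 cycles (positive minus negative), the reference bears on every value. On the raw Ct scale, with no reference, the median over assays was 0.35 cycles, and 9 assays were higher and 1 lower.

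Epcam had a level of -7.19 ± 1.66 (SD, 31 cells) in Sox9-positive and -8.12 ± 2.25 (39 cells) in negative cells, 1.14 cycles higher within tiers. The difference for Epcam was under 1 cycle without depth adjustment (0.93), with a Ct limit of 24 (0.87) and without the cells of extreme depth (0.95), and past 1 cycle on raw Ct. Its Ct ran from 15.2 through a median of 19.7 to 24.4 in positive cells and from 15.3 through 21.5 to 24.9 in negative ones. The ranges thus overlapped almost fully, while the medians lay apart. Lrig1, the gene of an ERBB inhibitor known from epithelial stem cells, stood at -9.61 ± 1.90 (10 cells) and -10.53 ± 1.94 (14 cells), 1.23 cycles higher within tiers. When undetected cells were entered at a Ct of 28, the difference for Lrig1 was -0.03 cycles.

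Hoxa11 stood at -11.59 ± 2.99 (11 cells) in positive and -10.12 ± 3.84 (17 cells) in negative cells, -1.34 cycles within tiers and -1.79 on raw Ct. It had enough detecting cells under 10 alternatives, against 18 for Hoxa13, Cd34, Epcam and Sall4, and stayed past 1 cycle in these 10. Ct limits of 26 and 24, where the differences of Hoxa13 (-0.54 and -0.38) and Sall4 (-0.64 and -0.15) fell short of 1 cycle, gave no value for Hoxa11. Hoxa13 stood at -9.03 ± 3.02 (16 cells) and -7.27 ± 1.21 (19 cells), or -1.23 cycles, and -0.68 on raw Ct. Its spread was wider in Sox9-positive cells, whose Ct ran from 16.8 to 26.2, against 17.8 to 23.4 in negative ones. Cd34, a sialomucin gene of endothelial and progenitor cells, stood at -11.55 ± 1.70 (23 cells) and -9.99 ± 1.15 (26 cells), or -1.40 cycles and -0.61 on raw Ct. Sall4, a zinc finger gene of pluripotent cells, stood at -9.81 ± 3.13 (24 cells) and -8.40 ± 2.68 (31 cells), or -1.41 cycles and -0.75 on raw Ct. The differences of all 6 genes were smaller than the SD over cells of at least 1 group.

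Of the 4 genes called by share, Pgr, Cd9 and Prom1 were not called by level, and Lgr5 was not compared, since 5 negative cells detected it. Where detected, Pgr stood at -11.56 ± 2.45 and -11.60 ± 1.79, Cd9 at -4.99 ± 1.99 and -4.64 ± 1.91 and Prom1 at -5.79 ± 2.15 and -5.85 ± 2.27 in Sox9-positive and negative cells, with differences within tiers of 0.36, -0.19 and 0.29 cycles. Apart from Epcam and Cd9, the luminal and simple epithelium list ran from Krt18 (0.87 cycles) through Cd24a (0.76), Cdh1 (0.64), Krt19 (0.41) and Krt8 (0.36) to Wnt7a (-0.18). Dpp4, a surface peptidase gene, was 0.78 cycles higher in Sox9-positive cells. Pecam1 was -0.75 cycles and Bmi1 -0.43.

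**Figure D5:**
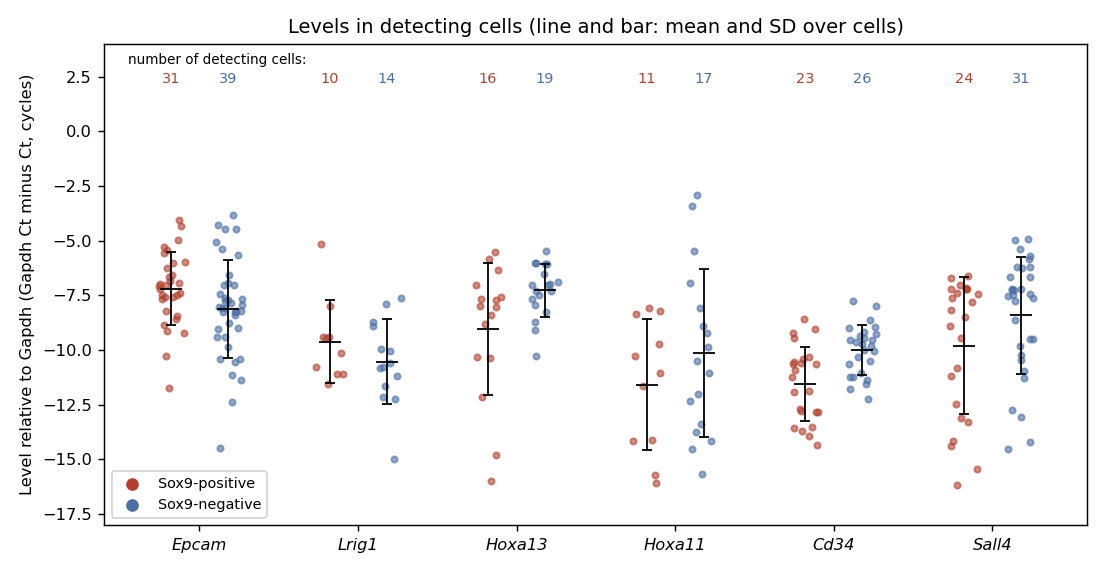
Level relative to Gapdh (Gapdh Ct minus Ct, in cycles; higher means more transcript) of Epcam, Lrig1, Hoxa13, Hoxa11, Cd34 and Sall4 in Sox9-positive (red) and Sox9-negative (blue) cells that detected the gene. Each point is 1 cell, the black line and bars are the mean and SD over cells and the number of cells is printed above; the groups overlap for every gene, and the red cells of Hoxa13 and Sall4 spread further down.

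Within the Sox9-positive cells the amount of Sox9 was set against that of 55 assays found in at least 20 of them. Both values are relative to the same Gapdh Ct, which alone can make them go together, so these are descriptions. The median rho was 0.20, 7 of 55 were below 0 and 2 reached 0.5. The highest were Pax2 (rho = 0.52 and r = 0.50, or 0.42 less the 2 most extreme cells, over 23 cells), Prom1 (0.51, 0.50 and 0.63, 21 cells) and Ptprc, the gene of the leukocyte phosphatase CD45 (0.46, 0.36 and 0.46, 25 cells). The lowest were Nt5e (-0.30, -0.37 and -0.24, 35 cells), Cd44 (-0.22, -0.23 and -0.41, 33 cells) and Pgr (-0.19, -0.08 and -0.08, 29 cells). On raw Ct, rho was 0.62 for Pax2, 0.61 for Prom1, 0.24 for Cd44 and 0.03 for Pgr, with a median over assays of 0.34. None of these values is adjusted for the number of detected assays.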

How the data were processed

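The deposited table gives a Ct for 96 assays in each of 96 sorted cells, raw per the file headers, with 40 for no value. Per the labels' protocols, lysates were preamplified with the CellsDirect kit and read with EvaGreen on a Fluidigm Biomark array. The Ct threshold settings, filters and primers were not stated in the sources consulted. The authors' deposited ratio table (fold changes to Gapdh and to cell 1) equals values recomputed from the Ct to within 6.55e-06 log2 units and served as an alternative. All columns were matched to cells by number, with 0 left unused. Assay names were read as mouse symbols through RefSeq names or synonyms, 4 by a synonym of several genes, 12 by protein or CD name, and 4 kept the file's name. Of the 96, 1 assay is left out of every comparison and list and counts only toward the number of detected assays.

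A Ct below 28 counted as detected. Shares and levels were compared within 3 depth tiers of detected assays, each tier weighted by n1 × n0 / (n1 + n0). Sizes of 20 points and 1 cycle (at least 10 cells in each group) stand in for tests, as 1 group has no replicates. Precision is limited by 36 and 52 cells. No cells were removed as doublets, and no pair of kept cells shared a recorded Ct. Genes named were the gland, Müllerian, WNT, steroid receptor and cell cycle lists, the 8 largest and 8 smallest share differences, the 5 largest and 5 smallest level differences, the 3 highest and 3 lowest rho, and the extremes of each list; Vim, Krt8, Krt19, sma, Lin28a and Itgae were added after its values were seen. Members and lists were chosen with earlier results of these data known. A mesothelial list had 0 measured members. Python 3.11.15, numpy 2.4.6, pandas 2.3.3, scipy 1.17.1 and matplotlib 3.10.9 were used.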

Additional observations from a re-analysis of the deposited data

How the results depend on the processing

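Of 91 values of the main results under 23 alternatives (3 chosen after seeing the data), 63 stayed within 1.5 times, the counting interval or 1 SD and 28 moved. The 4 assays higher by share in Sox9-positive cells became 10 without depth adjustment, 7 within tiers of Gapdh Ct, 7 and 9 with Sox9 limits of 26 and 24 (where at 24 the 36 positive cells became 23), 2 without a Gapdh filter, 1 without the cells of extreme depth (Lgr5) and 10 at 15 points. The 0 lower became 1 with a Sox9 limit of 24, 3 with all reference genes detected, 2 without extreme depth and 4 at 15 points. The 2 assays higher by level became 0 without depth adjustment, 1 with Gapdh Ct below 16, 1 with Epcam detected, 0 without extreme depth, 9 on raw Ct, 10 with undetected cells at 28, 1 in the shared range of depth and 5 against the median of assays found in all kept cells. The 4 lower became 7 without adjustment, 1 and 0 with Ct limits of 26 and 24, 7 without a Gapdh filter, 2 without extreme depth, 1 on raw Ct, 8 with at least 5 detecting cells and 2 in the shared range. Over 15 alternatives Lgr5 stayed at 20 points or more in 14 (16.6 to 40.3), Pgr in 13 (8.59 to 30.8), Cd9 in 12 (7.22 to 26.8) and Prom1 in 10 (13.3 to 34.0), all above 0. The level of Lrig1 changed sign to -0.0271 with undetected cells at 28. The causes were not tested. No paired analysis was possible because all cells belong to 1 group.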

Other observations

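Sox9 was also detected in 2 of the 8 cells left out for a late Gapdh, cell 1 and cell 25, at a Ct of 25.1 and 25.3. Their Gapdh Ct was 20.5 and 19.6, and they detected 13 and 14 of the other assays, fewer than any kept cell.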
